A study of Mus musculus with 4 samples.

Results

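The genes described here are 50 interferon response genes of the mouse, chosen by name from genes that type I or type II interferon induces, together with the interferon receptors. All 50 were found by symbol among the 27179 genes of the deposited table, and all 50 were among the 14239 genes with enough reads to be tested. They comprise 34 genes mainly known from the type I response, the factor Irf1, 10 immunity GTPases, the thiol reductase Ifi30 and 4 receptor chains. The 34 are 22 genes listed as antiviral effectors, 10 nucleic acid sensors and their partners, and the factors Irf7 and Irf9. They were measured by RNA-seq in LTi (lymphoid tissue inducer) cells, a kind of innate lymphoid cell, which were sorted from the lamina propria of the small intestine of C57BL/6 mice. The sorting gate took Lin- cells positive for CCR6 and CD127 and negative for NKp46, NK1.1 and KLRG1. There were 2 libraries from Gata3 fl/fl VavCre mice (VavCre libraries), in which Cre under the Vav promoter deletes Gata3 in blood-forming cells and hence in all their descendants, and 2 from Gata3+/+ mice (control libraries). The labels give neither the age or sex of the mice, nor whether controls carried Cre, nor whether animals were pooled. As Vav-driven deletion reaches other blood lineages too, an effect within LTi cells and an effect through other cells cannot be told apart in this design.

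Type I interferons signal through the receptor chains Ifnar1 and Ifnar2, and type II interferon (interferon gamma) through Ifngr1 and Ifngr2. JAK kinases at these receptors activate STAT proteins. A complex that contains Stat2 and Irf9 binds interferon-stimulated response elements (ISRE), while STAT dimers bind gamma-activated sites (GAS). The induced genes encode RNA and DNA sensors, enzymes that block viral RNA and protein, and the guanylate-binding (Gbp) and immunity-related (IRG) GTPases, which attack the vacuoles of intracellular bacteria and parasites and are strongly induced by interferon gamma.

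The VavCre libraries held 24315878 and 23973995 reads assigned to genes, against 14294708 and 12670034 in the control libraries. Values are RPKM (reads scaled to gene length and library size), and differences are log2(RPKM + 1) of VavCre minus control with their standard error (SE), called at an adjusted p under 0.05 with limma and Benjamini-Hochberg adjustment over all tested genes. The median tested gene lay 0.43 log2 units higher in the VavCre libraries, and 0.04 after median-ratio scaling, so values relative to the median gene are given where direction depends on this. Gata3 had 34.5 and 23.3 RPKM in VavCre libraries, against 84.3 and 50.7 RPKM in control libraries, without overlap and not called (adjusted p = 0.0903, limma), and reads over the whole gene do not show which exons remained. All 12 LTi markers, among them Il7r and Ccr6, were detected in every library and none was called by limma or limma-voom (3 had an unadjusted p under 0.05), with summed levels of 1360 and 1600 RPKM in VavCre libraries against 1980 and 1440 RPKM in control libraries. Both VavCre libraries were below both control libraries for 5 of the 12, and for 9 after median-ratio scaling (median difference -0.87), beside 7.57% and 25.6% of all tested genes. Markers of other cell types also moved with genotype: 13 of 15 B and plasma cell markers, 10 of 14 epithelial markers, 6 of 10 plasmacytoid dendritic cell markers and 4 of 12 T cell markers were called higher. The share of all tested genes called higher was 8.31% (limma).

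Of the 50 interferon response genes, 13 rose in VavCre libraries and none fell, where 8.31% of all tested genes were called higher and 0.688% lower (limma). The 13 are Ifi27l2a, Oas1a, Ly6a, Oas2, Xaf1, Isg20, Oasl1, Ifi44, Trim25, Zbp1, Parp9, Irgm1 and Ifi30. Another 12 members had an unadjusted p under 0.05 without passing the adjusted threshold. After median-ratio scaling none of the 50 was called (21 had an unadjusted p under 0.05), beside 0.583% of all genes called higher and 0.435% lower, and limma-voom on the recovered reads called 4, beside 1.84% higher and 0.358% lower. Bulk libraries cannot tell a change in the number of cells of a type from a change in RNA per cell. With 2 libraries a group, and nothing in the labels to show that they came from separate animals, the p-values measure only the spread between these libraries.

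Among the 34 type I genes, 11 rose, the median difference was 1.16, and 29 lay above the median tested gene. Among the 10 GTPases, 1 rose, the median difference was -0.04, and 4 lay above the median tested gene. Of all tested genes 8.31% were called higher (limma), and 1 of 10 is near that share. Relative to the median gene these medians were 0.73 for the type I genes and -0.48 for the GTPases, and after median-ratio scaling the medians themselves were 0.76 and -0.56. Both VavCre libraries exceeded both control libraries in 29 type I genes and 3 GTPases, beside 54.0% of all tested genes, and in none of either group were both lower, beside 7.57%. After median-ratio scaling 24 type I genes were higher and 2 lower without overlap, and 2 GTPases were higher and 4 lower, beside 29.7% and 25.6% of all tested genes. The difference between these groups of genes was not tested, since they were chosen with earlier results of these data known.

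**Figure D1:**
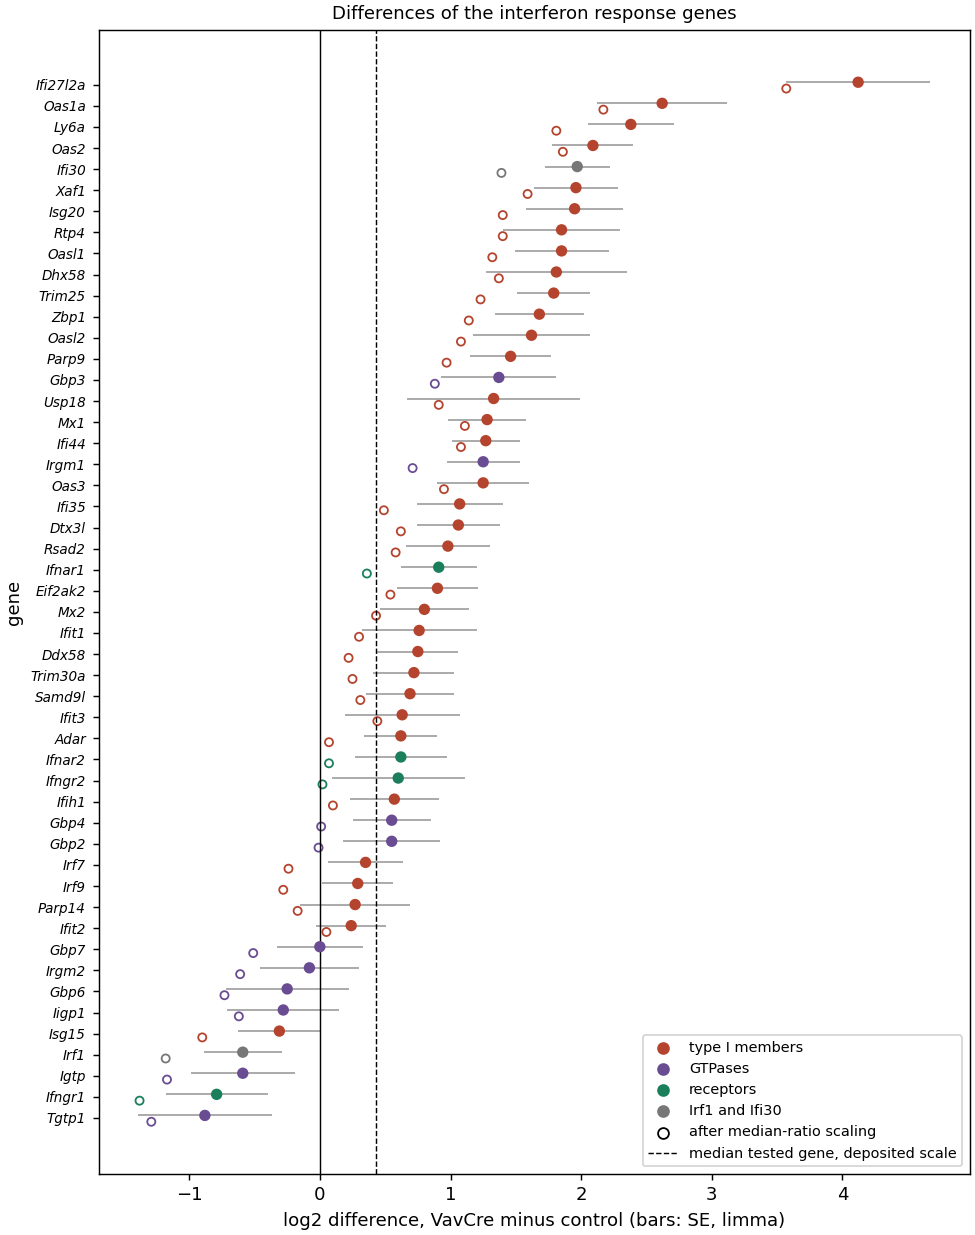
Log2 difference of each of the 50 genes, VavCre minus control (filled points with SE from limma), and the same after median-ratio scaling (open points), with the median tested gene at 0.43 as a dashed line. Type I genes make up most of the upper part of the plot, with Ifi27l2a at 4.12, while 6 of the 10 GTPases lie below 0 and Tgtp1 is lowest at -0.88.

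On the list of antiviral effectors 8 of 22 rose, beside 8.31% of all tested genes, with a median difference of 1.27. The list is broad, and the 8 include Ly6a and Xaf1, which are described below by other roles. Ifi27l2a (chr12:103433873-103443680, build GRCm38), a small interferon-induced membrane protein, had 170 and 99.2 RPKM in VavCre libraries, against 3.48 and 11.6 RPKM in control libraries. The libraries did not overlap, and the difference was 4.12 ± 0.55 (SE, adjusted p = 0.0211, limma). Its RefSeq span contains that of Ifi27, a related gene with 108 and 88.5 RPKM in VavCre libraries, against 60.5 and 42.6 RPKM in control libraries. Spans of another RefSeq gene overlap 19 of the 50 members and 5 of the 13 called ones (Ifi27l2a, Ly6a, Trim25, Parp9 and Ifi30); the library method keeps no strand, so reads from shared exons cannot be told apart there. Ly6a (chr15:74994877-74998031), the surface protein known as Sca-1, had 83.4 and 68.2 RPKM in VavCre libraries, against 10.5 and 17.7 RPKM in control libraries, a difference of 2.38 ± 0.33 (adjusted p = 0.0198, limma). Each VavCre library was well above each control library for this gene too, and Ly6a remained called with limma-voom (adjusted p = 0.0431), as did Ifi27l2a (adjusted p = 0.0488).

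Isg20 (chr7:78913396-78920396), an exonuclease that degrades RNA, had 41.9 and 26.6 RPKM in VavCre libraries, against 6.04 and 10.2 RPKM in control libraries (difference 1.95 ± 0.37, adjusted p = 0.0341, limma). Xaf1 (chr11:72301461-72313733), which binds the apoptosis inhibitor XIAP, had 5.65 and 4.90 RPKM in VavCre libraries, against 0.592 and 0.638 RPKM in control libraries (difference 1.96 ± 0.32, adjusted p = 0.0258, limma). Neither gene overlapped between the groups, and the control libraries of Xaf1 were close to each other. Ifi44 (chr3:151730922-151749910) had 90 and 125 reads in VavCre libraries, against 4 and 0 reads in control libraries (1.27 and 1.79 RPKM against 0.0962 and 0 RPKM). Scaled to library size, its reads were 30.0 times as frequent in VavCre libraries, with an exact 95% counting interval of 11.6 to 111, and the difference was 1.27 ± 0.26 (adjusted p = 0.0383, limma).

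The oligoadenylate synthetases make a second messenger that switches on the RNA-degrading enzyme RNase L, and their genes lie on mouse chromosome 5. Oas1a (chr5:120896256-120907544) had 12 and 14.1 RPKM in VavCre libraries, against 0.407 and 2.67 RPKM in control libraries (difference 2.62 ± 0.50, adjusted p = 0.0344, limma). Oas2 (chr5:120730333-120749886) was almost absent from the control libraries, with 261 and 361 reads in VavCre libraries against 1 and 0 reads in control libraries (2.78 and 3.90 RPKM against 0.0181 and 0 RPKM). Scaled to library size, the ratio of its reads was 347, with an exact 95% counting interval of 62.1 to 13700 that reflects the single control read, and the difference was 2.09 ± 0.31 (adjusted p = 0.0221, limma). Oasl1 (chr5:114923143-114937911), a synthetase-like protein without the enzyme activity, had 18 and 24.6 RPKM in VavCre libraries, against 6.85 and 3.75 RPKM in control libraries (difference 1.85 ± 0.36, adjusted p = 0.0358, limma). Thus 3 of the 5 family members on the list rose, beside 8.31% of all tested genes. None of the 5 was called after median-ratio scaling. The others, Oas3 at 1.25 (adjusted p = 0.0748, limma) and Oasl2 at 1.62 (adjusted p = 0.0742, limma), were not called. Both were higher in VavCre libraries without overlap on the deposited scale, beside 54.0% of all tested genes. After median-ratio scaling both still were, beside 29.7% of all tested genes.

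Of the 14 genes on the effector list that did not pass, the pair with the highest level differed in direction. Isg15 (chr4:156199424-156200818), a ubiquitin-like modifier and one of the most used readouts of the type I response, had 57.3 and 76.0 RPKM in VavCre libraries, against 99.6 and 67.9 RPKM in control libraries. The groups overlapped, with a difference of -0.31 ± 0.32 (adjusted p = 0.545, limma), the only negative one among the 34 type I genes on this scale, and -0.04 without control replicate 1. After median-ratio scaling the difference was -0.90 (adjusted p = 0.124, limma) and both VavCre libraries were below both control libraries. Ifi35 had 52.6 and 60.9 RPKM in VavCre libraries, against 34 and 20.5 RPKM in control libraries, without overlap (difference 1.07 ± 0.33, adjusted p = 0.0902, limma). Among the others, the Ifit genes, whose products bind viral RNA, were low and overlapped between groups: Ifit1 had 3.20 and 7.21 RPKM in VavCre libraries against 3.21 and 1.85 RPKM in control libraries, and Ifit2 and Ifit3 were below 2 RPKM in every library. Mx1, the gene of a dynamin-like GTPase, had 141 and 64 reads in VavCre libraries, against 0 and 2 reads in control libraries. Scaled to library size, its reads were 57.2 times as frequent (exact 95% counting interval 15.6 to 476), and it just missed the threshold (adjusted p = 0.0525, limma), as did Rtp4 (adjusted p = 0.0552). These genes outside the naming rule were chosen after their values were seen, as examples of well-known effectors. Mx2, Rsad2, Usp18, Samd9l and Trim30a were not called. On the deposited scale they were higher in VavCre libraries without overlap, as were 54.0% of all tested genes. After median-ratio scaling Usp18 overlapped, while Mx2, Rsad2, Samd9l and Trim30a were still higher without overlap, beside 29.7% of all tested genes.

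**Figure D2:**
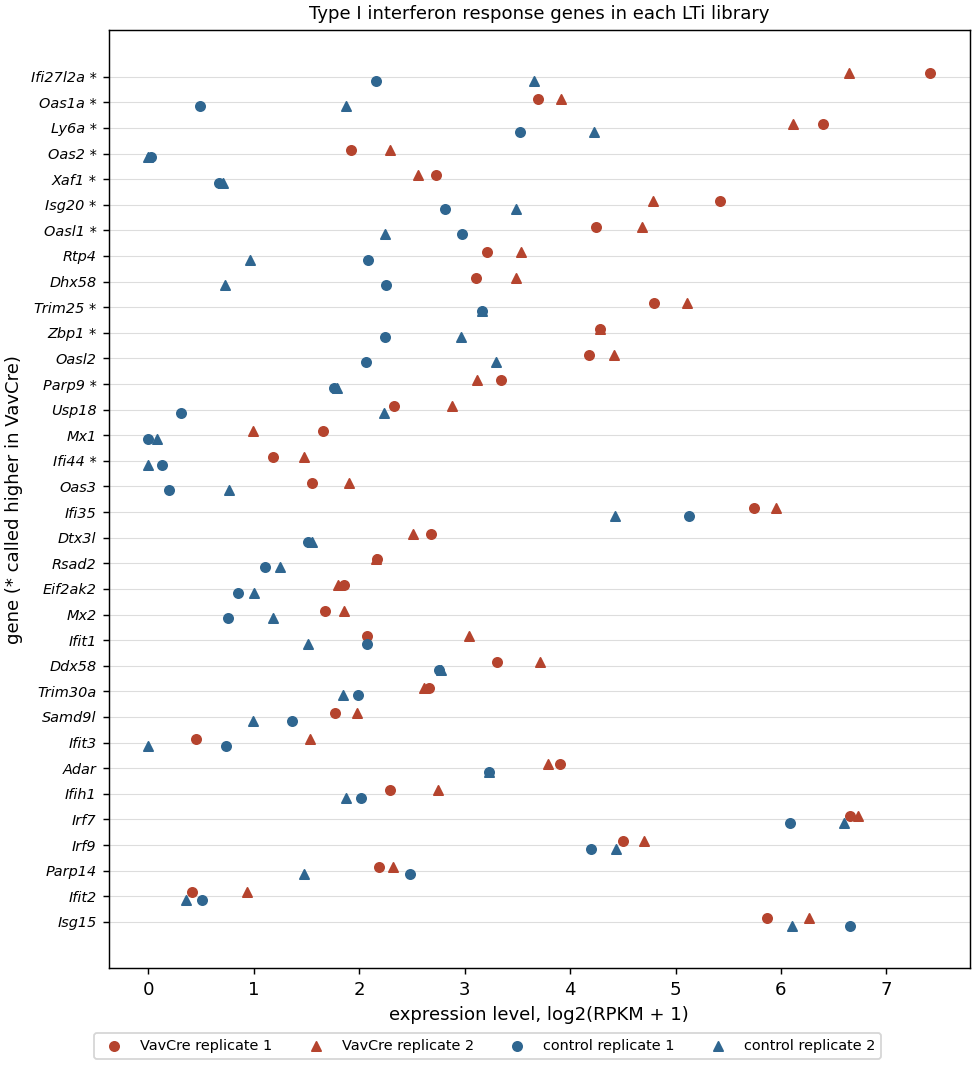
Level of each of the 34 type I genes, as log2(RPKM + 1), in each VavCre library (red) and control library (blue), in order of the difference, with an asterisk on genes called higher by limma. On this deposited scale red points are above blue points without overlap for 29 genes, beside 54.0% of all tested genes. The groups overlap for Ifit1, Ifit2, Ifit3, Parp14 and Isg15. After median-ratio scaling 24 genes were higher and 2 lower without overlap, beside 29.7% and 25.6% of all tested genes.

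Among the sensors of foreign or misplaced nucleic acid and their partners, 3 of 10 rose, beside 8.31% of all tested genes. Their median difference was 0.98. Trim25 (chr11:88999403-89020294), a ubiquitin ligase that acts on the RNA sensor RIG-I, had 26.8 and 33.5 RPKM in VavCre libraries, against 7.99 and 7.97 RPKM in control libraries (difference 1.79 ± 0.28, adjusted p = 0.0238, limma). It was also called with limma-voom (adjusted p = 0.0346). Zbp1 (chr2:173206612-173218959), which senses Z-form nucleic acid and can start cell death, had 18.5 and 18.5 RPKM in VavCre libraries, against 3.75 and 6.83 RPKM in control libraries (difference 1.68 ± 0.34, adjusted p = 0.0395, limma). Parp9 (chr16:35938470-35972621), a partner of the ubiquitin ligase Dtx3l, had 9.13 and 7.67 RPKM in VavCre libraries, against 2.38 and 2.46 RPKM in control libraries (difference 1.46 ± 0.31, adjusted p = 0.0426, limma). All 3 genes had no overlap between the groups. Dtx3l had 5.43 and 4.68 RPKM in VavCre libraries, against 1.85 and 1.93 RPKM in control libraries, and was not called (adjusted p = 0.0863, limma). Parp9 and Dtx3l overlap each other by 558 bases on chromosome 16.

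The uncalled genes of highest level on this list were those of an RNA sensor and of an RNA-editing enzyme. Ddx58, which encodes RIG-I, had 8.91 and 12.1 RPKM in VavCre libraries, against 5.76 and 5.83 RPKM in control libraries (difference 0.75 ± 0.31, adjusted p = 0.164, limma). Adar, which edits double-stranded RNA, had 14.0 and 12.8 RPKM in VavCre libraries, against 8.38 and 8.40 RPKM in control libraries (difference 0.62 ± 0.28, adjusted p = 0.19, limma). Neither gene overlapped between the groups, but after median-ratio scaling the differences were 0.22 for Ddx58 and 0.07 for Adar. On the deposited scale Ifih1, Dhx58 and the kinase gene Eif2ak2 were likewise higher without overlap, beside 54.0% of all tested genes, and not called. Parp14 was the sole gene of this list whose groups overlapped on that scale. After median-ratio scaling Adar and Ifih1 (at 0.10) overlapped too.

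None of the 3 interferon regulatory factors was called by limma or limma-voom or had an unadjusted p under 0.05, and the direction of Irf7 and Irf9, unlike that of Irf1, depended on scaling. Irf1 (chr11:53770014-53778374), a factor strongly induced by interferon gamma, had 89.1 and 90.6 RPKM in VavCre libraries, against 165 and 111 RPKM in control libraries. On the deposited scale both VavCre libraries were below both control libraries in 2 of the 50 members, Irf1 and Ifngr1, beside 7.57% of all tested genes. After median-ratio scaling there were 8 such members, beside 25.6% of all tested genes. The difference of Irf1 was -0.59 ± 0.30 (adjusted p = 0.24, limma), -0.31 without control replicate 1, and -1.18 after median-ratio scaling (adjusted p = 0.0816, limma). Irf7, which drives the amplification of type I interferon, had 100 and 105 RPKM in VavCre libraries, against 66.7 and 96.0 RPKM in control libraries, a difference of 0.35 ± 0.29 that became -0.24 after median-ratio scaling. Irf9, the DNA-binding part of the ISRE complex, had 21.7 and 25.0 RPKM in VavCre libraries, against 17.4 and 20.6 RPKM in control libraries, with 0.29 ± 0.27 and, after median-ratio scaling, -0.28. Its libraries did not overlap on either scale, higher in VavCre libraries on the deposited one and lower after scaling.

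The receptors were expressed in every library, and none of the 4 chains was called by limma or limma-voom (1 had an unadjusted p under 0.05). Ifnar1 had 16.3 and 16.9 RPKM in VavCre libraries, against 7.26 and 9.68 RPKM in control libraries, without overlap (difference 0.91 ± 0.29, adjusted p = 0.101, limma). Ifnar2 had 20.4 and 12 RPKM in VavCre libraries, against 10.9 and 8.85 RPKM in control libraries (0.62 ± 0.35, adjusted p = 0.278, limma), also without overlap, and the difference was 0.26 without VavCre replicate 1. After median-ratio scaling the differences were 0.36 for Ifnar1, still without overlap, and 0.07 for Ifnar2, with overlap. The interferon gamma receptor showed no common direction of its chains. Ifngr1 (chr10:19591949-19610229), the ligand-binding chain and the member with the highest level, had 308 and 504 RPKM in VavCre libraries, against 825 and 562 RPKM in control libraries, lower without overlap at -0.79 ± 0.39 (adjusted p = 0.223, limma) and at -1.38 after median-ratio scaling (adjusted p = 0.0894, limma). Its difference was -0.43 without VavCre replicate 1 and -0.51 without control replicate 1. Ifngr2 had 37.8 and 70.7 RPKM in VavCre libraries, against 52.7 and 21.6 RPKM in control libraries, with overlap (0.60 ± 0.51, adjusted p = 0.469, limma, and 0.02 after median-ratio scaling).

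Of 10 interferon ligand genes only Ifng had enough reads to be tested. It had 17.4 and 6.98 RPKM in VavCre libraries, against 0.811 and 5.17 RPKM in control libraries, a difference of 1.86 ± 0.70 (adjusted p = 0.146, limma). On the deposited scale its VavCre libraries were higher without overlap, as in 54.0% of all tested genes. After median-ratio scaling the groups of Ifng overlapped, at 1.38 (adjusted p = 0.367, limma). Ifnb1, the gene of interferon beta, had 0 reads in all 4 libraries, where 3 reads would be 0.123 and 0.125 CPM (reads scaled to library size alone) in VavCre libraries and 0.21 and 0.237 CPM in control libraries. Downstream of the receptors, none of 11 JAK-STAT genes and feedback inhibitors was called by limma or limma-voom, and 4 had an unadjusted p under 0.05. Stat2 had 19.6 and 14.9 RPKM in VavCre libraries, against 9.01 and 8.80 RPKM in control libraries (0.87 ± 0.29, adjusted p = 0.109, limma). Both VavCre libraries exceeded both control libraries for Stat2. Of 16 tested genes for other regulatory factors and adaptors, none was called by limma or limma-voom, and 7 had an unadjusted p under 0.05.

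Within the GTPases, the 5 listed Gbp genes had a median difference of 0.55 (0.11 relative to the median gene and -0.01 after median-ratio scaling). The 5 listed IRG genes had one of -0.28 (-0.72 and -0.62), and the single called gene of the 10 was Irgm1. Outside the 50 genes, differences were 1.53 for Ifi47, 1.22 for Gbp9, 1.14 for Gbp11, 0.53 for Gbp8, 0.04 for Gbp10, -0.27 for Gbp5 and -0.37 for Tgtp2, and none was called. Irgm1 (chr11:48865245-48871420), a regulatory IRG protein that keeps the effector IRG proteins off the cell's own membranes, had 15.9 and 17.1 RPKM in VavCre libraries, against 6.44 and 6.24 RPKM in control libraries. The replicates of each group were close and the groups far apart, with a difference of 1.25 ± 0.28 (adjusted p = 0.0461, limma), or 0.71 after median-ratio scaling (adjusted p = 0.177, limma). The other regulatory IRG genes were not called. Irgm2 (chr11:58214977-58222783) had 6.30 and 7.26 RPKM in VavCre libraries, against 5.12 and 10.1 RPKM in control libraries (-0.08 ± 0.38). Igtp (chr11:58199556-58207592), also known as Irgm3, had 25.2 and 55.3 RPKM in VavCre libraries, against 58.3 and 55.2 RPKM in control libraries (-0.59 ± 0.40). Its groups overlapped on the deposited scale, and 1 library decided the difference there, which was -0.04 when VavCre replicate 1 was left out and -1.14 when VavCre replicate 2 was. After median-ratio scaling both Irgm2, at -0.61, and Igtp, at -1.17, were lower in VavCre libraries without overlap, beside 25.6% of all tested genes.

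The effector IRG genes among the 10 GTPases were low. Iigp1 had 1.43 and 1.17 RPKM in VavCre libraries, against 3.04 and 0.934 RPKM in control libraries (-0.28 ± 0.43). Tgtp1 had 0.922 and 2.44 RPKM in VavCre libraries, against 6.05 and 2.16 RPKM in control libraries (-0.88 ± 0.51, and -0.30 without control replicate 1), and reads that also match the near-identical Tgtp2 make its level uncertain. On the deposited scale both overlapped between groups, with control replicate 1 the highest library for each. After median-ratio scaling Iigp1 still overlapped, at -0.62, while Tgtp1 was lower in VavCre libraries without overlap, at -1.29.

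Among the guanylate-binding proteins, Gbp3 had 6.59 and 10.6 RPKM in VavCre libraries, against 1.62 and 4.07 RPKM in control libraries (1.37 ± 0.44, adjusted p = 0.102, limma). Gbp4 had 9.32 and 12.3 RPKM in VavCre libraries, against 7.45 and 6.57 RPKM in control libraries (0.55 ± 0.30, adjusted p = 0.273, limma). Among the listed Gbp genes, these were the ones whose groups stood apart on the deposited scale. After median-ratio scaling Gbp3 still did, at 0.88, while Gbp4 overlapped, at 0.01. Gbp2 had 14.3 and 23.4 RPKM in VavCre libraries, against 15.4 and 9.61 RPKM in control libraries (0.55 ± 0.37, and -0.01 after median-ratio scaling). Gbp6 had 3.13 and 5.17 RPKM in VavCre libraries, against 7.86 and 3.07 RPKM in control libraries (-0.25 ± 0.47). For Gbp7 there were 5.39 and 6.33 RPKM in VavCre libraries, against 7.01 and 4.89 RPKM in control libraries (-0.00 ± 0.33). These last 3 genes overlapped between groups on the deposited scale. After median-ratio scaling Gbp2 and Gbp6 (at -0.73) still did, while Gbp7 was lower in VavCre libraries without overlap, at -0.51. The GTPases also varied within genotype: VavCre replicate 1 exceeded VavCre replicate 2 in 1 of 10, and control replicate 1 exceeded control replicate 2 in 8 of 10. Across the 34 type I genes these counts were 12 and 15. Without control replicate 1 the GTPase median relative to the median gene was -0.21.

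**Figure D3:**
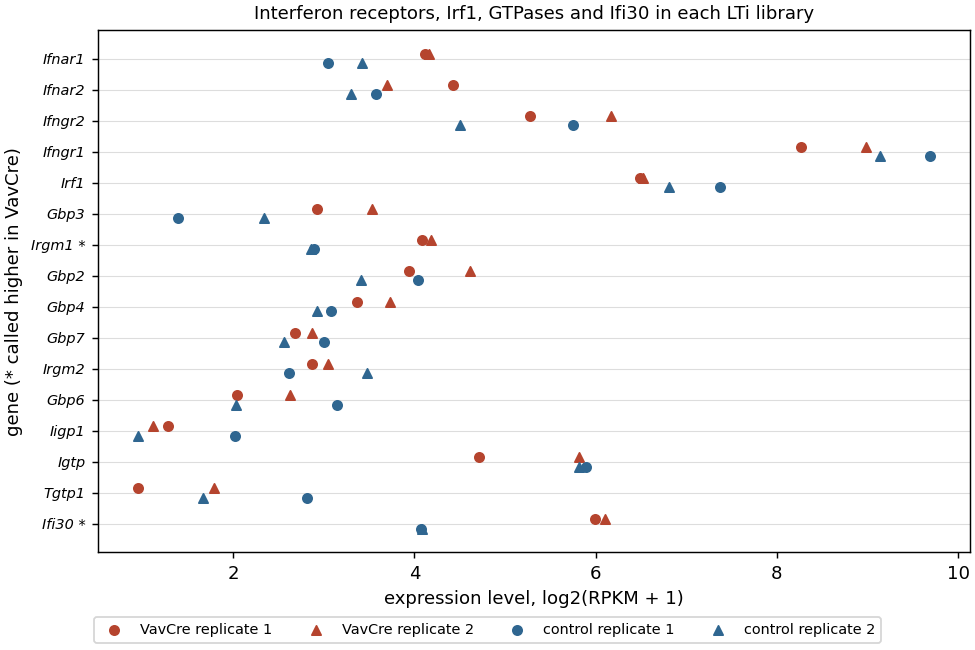
Level, as log2(RPKM + 1), of the 4 receptors, Irf1, the 10 GTPases and Ifi30 in each VavCre library (red) and control library (blue), with an asterisk on genes called higher by limma. On this deposited scale points of the groups interleave for 7 of the 10 GTPases, beside 38.5% of all tested genes. Irgm1 and Ifi30 show tight, separate pairs, and Ifngr1 and Irf1 have their control libraries on the right. After median-ratio scaling 4 of the 10 GTPases overlapped, beside 44.6% of all tested genes.

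Promoter windows, 250 bases before to 50 after the start, were on hand for 36 of the 50 genes, from RefSeq (GRCm38.p6). The core ISRE letters, GAAA, any 2 bases and GAAA again (TTTC, any 2 bases and TTTC on the other strand), occurred in 17 of them (47.2%), against 3.99% of 27025 genes. The palindromic GAS letters TTCNNNGAA occurred in 13 (36.1%), against 9.55% of all genes. All 7 GTPase windows held ISRE letters and 4 held GAS letters. Of 23 type I windows, 10 held ISRE letters and 6 held GAS letters, and of 4 receptor windows, none held ISRE letters and 2 held GAS letters. Of 8 windows of called genes 2 held ISRE letters, those of Oas1a and Irgm1, against 15 of 28 windows of genes not called. A match describes letters and not binding, and tandem ISRE matches may overlap.

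The stretches that carry these letters are shown for GTPases of both families, to set the called Irgm1 beside genes that were not called, with capitals on the GAS and ISRE letters and all read 5′ to 3′ on the gene's strand. They lie at chr11:58199501-58199541 (plus strand) for Igtp, chr11:58214892-58214932 (plus) for Irgm2, chr11:48992304-48992344 (minus) for Tgtp1, chr11:48871425-48871460 (minus) for Irgm1, chr3:142620594-142620623 (plus) for Gbp2 and chr3:142530220-142530302 (plus) for Gbp7.
Igtp: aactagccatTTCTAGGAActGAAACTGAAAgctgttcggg
Irgm2: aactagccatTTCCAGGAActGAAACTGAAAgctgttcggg
Tgtp1: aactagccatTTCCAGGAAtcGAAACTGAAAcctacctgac
Irgm1: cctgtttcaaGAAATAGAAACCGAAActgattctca
Gbp2: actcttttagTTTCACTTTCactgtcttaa
Gbp7: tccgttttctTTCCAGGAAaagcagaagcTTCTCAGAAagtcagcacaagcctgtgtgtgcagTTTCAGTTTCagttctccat
The stretches of Igtp and Irgm2 are identical at 40 of 41 bases. Both genes overlapped between the groups of libraries on the deposited scale. After median-ratio scaling both were lower in VavCre libraries without overlap, as were 25.6% of all tested genes. Irgm1, the called IRG gene, has tandem ISRE letters and no GAS letters in its window. To set beside them, the stretches of 3 effectors and of Irf1 follow, from chr5:120907526-120907633 (minus) for Oas1a, which rose, chr4:156200865-156200906 (minus) for Isg15, which was not called, chr7:78913341-78913369 (plus) for Isg20, which rose, and chr11:53769914-53769942 (plus) for Irf1, which was not called.
Oas1a: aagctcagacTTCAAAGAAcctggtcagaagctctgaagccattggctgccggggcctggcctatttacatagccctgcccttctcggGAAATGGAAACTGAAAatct
Isg15: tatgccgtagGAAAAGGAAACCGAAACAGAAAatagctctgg
Isg20: ctggggagggTTCTTGGAAtttttccttt
Irf1: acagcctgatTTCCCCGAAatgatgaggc
Oas1a and Isg15 both carry ISRE letters, with Oas1a higher in VavCre libraries and Isg15 not, while Isg20 and Irf1 carry GAS letters alone.

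Ifi30 (chr8:70762773-70766663) encodes a lysosomal thiol reductase that interferon gamma induces and that antigen-presenting cells hold in steady state. It had 62.9 and 67.5 RPKM in VavCre libraries, against 15.8 and 15.9 RPKM in control libraries. The replicates of each group were nearly equal and the difference was 1.97 ± 0.25 (adjusted p = 0.0183, limma), the lowest adjusted p among the 50 genes.

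Other interferon-induced genes, outside the 50, were read from a list of 56, of which 54 were tested. Of these, 13 rose and 1 fell, where 8.31% of all tested genes were called higher and 0.688% lower (limma). Ifitm3, a membrane protein that blocks virus entry, had 68.9 and 62.8 RPKM in VavCre libraries, against 5.07 and 9.13 RPKM in control libraries (3.09 ± 0.33, adjusted p = 0.0133, limma). Ly6c2 had 36.5 and 19.7 RPKM in VavCre libraries, against 0.786 and 2.27 RPKM in control libraries (3.53 ± 0.45, adjusted p = 0.0183, limma). Lgals9, a galectin, had 168 and 234 RPKM in VavCre libraries, against 45.8 and 50.5 RPKM in control libraries (2.02 ± 0.29, adjusted p = 0.0212, limma). These 3 genes had no overlap between the groups. The gene that fell was Cxcl9, a chemokine induced by interferon gamma, with 0.439 and 1.16 RPKM in VavCre libraries, against 14.0 and 7.77 RPKM in control libraries (-2.70 ± 0.41, adjusted p = 0.0235, limma). It was the 1 gene of this list still called after median-ratio scaling (-3.10, adjusted p = 0.0471, limma).

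Markers of cells that the sort should remove moved with the type I genes. The summed level of the 34 type I genes was 719 and 687 RPKM in VavCre libraries, against 305 and 314 RPKM in control libraries. Over the 15 B and plasma cell markers, none at 0 in any library, the sum was 4600 and 2820 RPKM in VavCre libraries, against 533 and 708 RPKM in control libraries. The 10 plasmacytoid dendritic cell markers, cells known for making type I interferon, summed to 886 and 878 RPKM in VavCre libraries, against 250 and 261 RPKM in control libraries. In VavCre libraries the highest on this list were Ly6d (351 and 354 RPKM) and Bst2 (298 and 273 RPKM). In control libraries Bst2 alone had 216 and 189 RPKM. Bst2 is itself interferon-induced, and Cox6a2 was at 0 in both control libraries. Which cells carried the markers of this list was not tested. T cell markers summed to 706 and 249 RPKM in VavCre libraries and 206 and 126 RPKM in control libraries, with none at 0, and epithelial markers to 1820 and 2650 RPKM in VavCre libraries and 465 and 277 RPKM in control libraries, with Lgr5 at 0 in control replicate 1. Of 12 myeloid markers 11 were tested and 2 were called higher, beside 8.31% of all tested genes. Sums over all 12 were 54.9 and 223 RPKM in VavCre libraries and 37.0 and 50.1 RPKM in control libraries. Among the 12, Clec10a was at 0 in both control libraries, Fcgr1 in replicate 1 of both groups, and Itgam and Cx3cr1 in control replicate 1. None of 7 tested stromal and endothelial markers, of 10 listed, was called by limma or limma-voom or had an unadjusted p under 0.05 (sums over all 10 of 32.3 and 44.4 RPKM in VavCre libraries, 26.5 and 93.4 RPKM in control libraries). The part of these cells in the interferon results was not tested. The GTPases summed to 88.4 and 141 RPKM in VavCre libraries, against 118 and 103 RPKM in control libraries. The receptors summed to 383 and 603 RPKM in VavCre libraries, against 896 and 602 RPKM in control libraries, most of it from Ifngr1. On this deposited scale VavCre and control libraries interleaved for both sums. Median-ratio scaling divides VavCre libraries by 1.17 and 1.29 and control libraries by 0.860 and 0.769. Both sums were then lower in both VavCre libraries than in both control libraries.

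**Figure D4:**
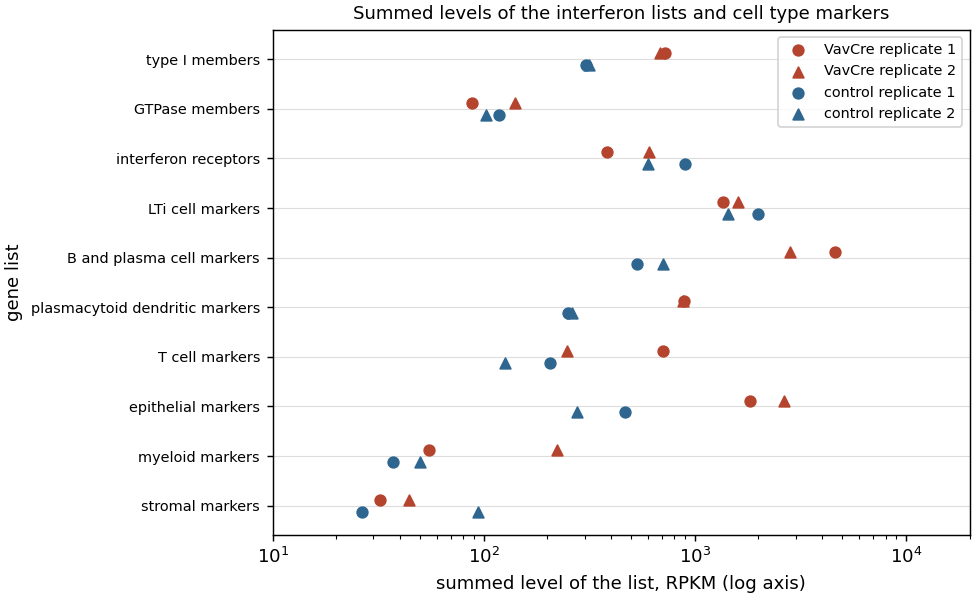
Summed RPKM (log axis) of the type I genes, GTPases, receptors and each list of cell type markers in the VavCre libraries (red) and control libraries (blue). On this deposited scale type I genes and B and plasma cell, plasmacytoid dendritic cell and epithelial markers stand apart between groups. T cell and myeloid markers do so narrowly (249 against 206 RPKM and 54.9 against 50.1 RPKM in the closest libraries). Groups overlapped for 5 of 12 T cell and 7 of 11 tested myeloid markers. GTPases, receptors, LTi and stromal markers interleave. After median-ratio scaling T cell and myeloid sums overlap, and GTPase, receptor and LTi sums are lower in both VavCre libraries.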

How the data were processed

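Per the labels' protocols, RNA of the sorted cells came from the miRNeasy Micro kit of Qiagen and libraries from Smart-seq2, which keeps neither strand nor molecular identifiers. Subread and featureCounts were used on mm10, per the submitters' processing notes, with versions, annotation and multiple mapping not given in the sources used here. In the deposited table, values are log2(RPKM + 1) plus 0.0001 for each library, which was worked out from the values, since the deposited files do not state the unit. Symbols, promoters and coordinates came from RefSeq (GRCm38.p6), with 25275 of 27179 identifiers found.

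Each value is a whole multiple of what 1 read is worth in that library, so read numbers were recovered (within 0.001 reads; 99.8% of the total in each VavCre library and 99.9% in each control library). For 287 tested genes the gene length was doubled to match an annotated transcript. VavCre libraries were 1.79 times as deep as control libraries. A gene was tested where 2 or more libraries reached 0.5226 CPM and its reads summed to 15 or more. The test was limma 3.58.1 in R 4.3.3 on the deposited log2 scale (pseudocount 1), with trend and robust variance, two-sided, and Benjamini-Hochberg adjustment over 14239 genes; this scale understates changes of low genes. A count test was planned for a table of raw counts, and the table holds none. Intervals and floors of 3 reads cover counting error only.

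Alternatives were median-ratio and upper-quartile scaling, a pseudocount of 0.1, no filter, a filter at 5 CPM, limma-voom on recovered reads, a replicate block and leaving out each library. The members, lists and tests were chosen with earlier results of these data known. Values per library are given for every called member, the receptors, the Irf genes and the GTPases, for the 2 uncalled members of highest level in each other list, for up to 4 called genes of each pathway list, and for Stat2, Ifng, Ifnb1 and Gata3; some genes that this rule names are not reported here, and other genes named were chosen after their values were seen.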

Additional observations from a re-analysis of the deposited data

How the results depend on the processing

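Of all tested genes, 1281 were called by limma on the deposited scale, against 145 after median-ratio scaling, 185 after upper-quartile scaling, 313 by limma-voom on recovered reads, 93 by limma-voom plus median-ratio scaling, 26 with the replicate block and median-ratio scaling, and 0 without a filter (4336 at an unadjusted p under 0.05). The 13 members called higher became 8 at a pseudocount of 0.1 and 4 with limma-voom, and 0 after median-ratio or upper-quartile scaling, without a filter, by limma-voom plus median-ratio scaling, and with the block and median-ratio scaling. Leaving out any 1 library left 0 genes called by limma (0 to 0 overall and 0 to 0 among members; 2417 to 3818 genes and 15 to 27 members at an unadjusted p under 0.05); no other count tool was run there, and a lone library is then assumed to vary like the other group's. With a replicate block 1017 genes and 11 members were called, Irgm1 and Parp9 dropping out; same-numbered libraries did not deviate together (r = -0.0209), so the numbers do not pair them. No member was called lower under any setting run. A 5 CPM filter called 15 members, adding Oas3, Oasl2 and Rtp4. Relative to the median gene, the type I median was 1.15 by limma-voom, 1.17 by limma-voom plus median-ratio scaling, 0.88 without a filter, 1.14 at a pseudocount of 0.1 and 0.53 to 0.72 with a library left out; the GTPase median was -0.70, -0.69, -0.32, -0.68 and -0.53 to -0.21 in the same settings. Signs turned for Gbp2 (-0.01 with median-ratio scaling, alone or with the block, -0.03 by limma-voom plus median-ratio scaling), Irf7 (-0.24, -0.24 and -0.23, and -0.20 after upper-quartile scaling), Irf9 (-0.28, -0.28, -0.29 and -0.25), Parp14 (-0.17, -0.17, -0.25 and -0.15) and Ifngr2 (-0.00 by limma-voom plus median-ratio scaling), and with 1 library left out for Gbp6 (-0.81 to 0.31), Gbp7 (-0.23 to 0.22), Ifit2 (-0.02 to 0.51), Ifngr2 (-0.02 to 1.22), Iigp1 (-0.81 to 0.25), Irgm2 (-0.51 to 0.34) and Parp14 (-0.23 to 0.78). Among called genes, Oas2 reached 4.96 at a pseudocount of 0.1 and 7.63 with limma-voom (7.04 with median-ratio scaling), Ifi44 3.52, 5.31 and 4.72, and Xaf1 3.07 with limma-voom, while Irgm1 was 0.71 after median-ratio scaling (alone or with the block), 0.74 after upper-quartile scaling and 0.79 with limma-voom and median-ratio scaling. The cause of these changes was not tested. The control libraries' depth limits what can be said of Oas2, Ifi44 and Mx1, which had at most 4 reads there.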
